A study of Homo sapiens with 4 samples.

Results

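The genes of the replication fork and of the origin recognition complex were followed in HT-29 and NCM460 cells with and without sturgeon chondroitin sulfate (SCS), a polysaccharide from sturgeon. The 41 genes were taken by symbol from a table of 18777 loci with at least 1 fragment. They comprise polymerase alpha with its primase, polymerases delta and epsilon, the sliding clamp PCNA, the clamp loader RFC, enzymes of Okazaki fragment processing, the strand-binding protein RPA, the GINS complex, fork protection factors and the origin recognition complex (ORC). All 41 had a mean of at least 1 CPM, fragments scaled to a common library size, in each line. RNA-seq had been done on HT-29 cells, a human colorectal adenocarcinoma line, and on NCM460 cells, the colon epithelial line used as the normal counterpart. In each line 1 library came from cells labelled Control, for which no vehicle is given, and 1 from cells treated with 100 μg/mL SCS for 24 h. Both lines were grown in medium with fetal bovine serum, at a higher share for NCM460 cells by the study's methods. There were no replicate libraries, so no test between conditions within a line could be made, and the intervals below cover counting error alone. In bulk RNA, fewer cells in S phase and less RNA of these genes per cell cannot be told apart.

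A replication origin is marked by ORC, which loads the MCM helicase with helper proteins before S phase. GINS and CDC45 then join the helicase, polymerase alpha-primase lays down primers, RFC places PCNA on the primed strand, and polymerases epsilon and delta copy the leading and lagging strands. RPA coats the unwound strand, and FEN1, DNA2, the RNase H2 enzyme and DNA ligase 1 turn Okazaki fragments into a continuous strand. Many of these genes are transcribed on entry into S phase under transcription factors of the E2F family, which recognise short GC-rich words near the start site.

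Promoter sequences are shown because a short word was more frequent there than among protein-coding genes, and the selection of the members did not use it. RefSeq promoters (GRCh38.p14, 250 bases before to 50 after a start site) were found for 36 of the 41 genes. POLD3, DNA2, RPA2, RPA3 and GINS4 were not matched. An E2F word, taken as TTTCCCGC, TTTCGCGC, TTTGCCGC or TTTGGCGC on either strand, was present in 14 of the 36 genes (38.9%). Among 15842 protein-coding genes with a RefSeq promoter this share was 5.40%. The median GC content of the promoters was 66.3% for the 36 genes and 64.7% for protein-coding genes. Other words of S phase and mitotic promoters stood differently. CCAAT was present in 58.3% of the 36 genes against 42.1% of protein-coding genes. The words TTTGAA and TTCGAA were present in 2.78% against 17.5%. The windows below run from 80 bases before to 20 bases after the start site, 5′ to 3′, with E2F words in capitals. The genes called lower with SCS in HT-29 cells come before those that were not called lower. The genes were chosen as examples of both kinds, with RFC1 as 1 without a word, after the matches were seen.
PCNA, chr20:5126603-5126702, minus strand: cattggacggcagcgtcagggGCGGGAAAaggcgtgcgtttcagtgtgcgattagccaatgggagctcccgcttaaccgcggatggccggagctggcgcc
CLSPN, chr1:35769959-35770058, minus strand: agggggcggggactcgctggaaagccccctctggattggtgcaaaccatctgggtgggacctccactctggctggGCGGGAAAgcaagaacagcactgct
GINS1, chr20:25407593-25407692, plus strand: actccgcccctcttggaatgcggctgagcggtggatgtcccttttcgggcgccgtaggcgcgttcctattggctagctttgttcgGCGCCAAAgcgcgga
GINS3, chr16:58392391-58392490, plus strand: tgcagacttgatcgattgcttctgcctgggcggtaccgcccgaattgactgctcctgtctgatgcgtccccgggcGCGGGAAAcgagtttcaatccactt
POLE, chr12:132687323-132687422, minus strand: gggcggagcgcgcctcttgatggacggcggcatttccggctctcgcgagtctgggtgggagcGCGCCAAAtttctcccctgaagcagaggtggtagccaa
POLA2, chr11:65261882-65261981, plus strand: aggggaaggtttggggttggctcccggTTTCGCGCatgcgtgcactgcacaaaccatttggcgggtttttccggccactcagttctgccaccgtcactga
RFC3, chr13:33818069-33818168, plus strand: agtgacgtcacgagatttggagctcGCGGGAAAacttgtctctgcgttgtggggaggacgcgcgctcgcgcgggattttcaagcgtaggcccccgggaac
ORC3, chr6:87590055-87590154, plus strand: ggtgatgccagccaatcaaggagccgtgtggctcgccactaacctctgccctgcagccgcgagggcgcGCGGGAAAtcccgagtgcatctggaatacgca
POLE4, chr2:74958563-74958662, plus strand: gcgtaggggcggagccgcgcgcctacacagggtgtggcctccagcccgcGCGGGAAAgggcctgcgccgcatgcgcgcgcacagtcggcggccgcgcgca
RFC1, chr4:39366343-39366442, minus strand: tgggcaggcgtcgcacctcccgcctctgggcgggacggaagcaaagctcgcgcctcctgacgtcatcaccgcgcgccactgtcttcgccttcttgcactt
The same word, GCGGGAAA, starts at position -5 in CLSPN and GINS3, -12 in ORC3, -31 in POLE4, -55 in RFC3 and -59 in PCNA, counted from the start site. GCGCCAAA starts at -18 in POLE and at 6 in GINS1, and TTTCGCGC at -53 in POLA2. Among genes not shown, GCGGGAAA starts at -31 in GINS2 and GCGCCAAA at -5 in POLE2. Matches in LIG1, POLA1 and TIPIN were not shown either. The window of RFC1 holds none of the 4 words. A word was present in 11 of the 26 matched genes with a lower call in HT-29 cells (42.3%) and in 3 of the other 10 (30.0%), namely ORC3, POLE4 and POLA1. A match is a stretch of letters and not a measured binding site.

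The HT-29 libraries held 1680308 (control) and 1637119 (SCS) fragments, and those of NCM460 cells 1359437 and 1173598. Mitochondrial transcripts took 35.3% and 13.6% of the HT-29 fragments, without and with SCS, and 61.8% and 45.6% of the NCM460 fragments. This share moved with SCS in both lines. Scaled by nuclear totals alone, 32 members were called lower in HT-29 cells, against 29 as reported below. The median member had 46 and 20 fragments in the HT-29 libraries and 9 and 19 in the NCM460 libraries. In the NCM460 control, 11 members had 3 fragments or fewer, the floor used here, which is worth 3.80 CPM in that library and 1.45 CPM in the HT-29 control. Of 9 epithelial markers, CDX1 and CDX2 were at 0 in both HT-29 libraries, and KRT20, VIL1 and CDX1 were at 0 in both NCM460 libraries. The summed epithelial level was 6372 CPM in the HT-29 control and 3295 with SCS, and 4283 and 2618 in NCM460 cells, with keratins as the bulk. Of 7 epithelial markers compared in HT-29 cells, 4 were called lower, against 14.8% of loci, and 2 higher, against 16.8%. VIL1 was lowest at -2.61 and KRT20 highest at 1.11. In NCM460 cells 3 of 6 were called lower, against 13.8% of loci, and 1 higher, against 15.4%. With the GC trend described below subtracted, 4 of 6 were lower and 1 higher in HT-29 cells, and 0 of 6 lower and 1 higher in NCM460 cells. Mesenchymal markers summed to between 5.79 and 36.4 CPM in the 4 libraries, with 2 to 4 of 7 at 0. Among immune markers PTPRC and CD3E were at 0 in every library, and CD68 is listed with the same values as EIF4A1. The part of these markers in the results was not tested.

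In HT-29 cells, most of the replication fork was lower with SCS. Calling a gene required a change over 1.5-fold and a 95% exact Clopper-Pearson interval of its log2 fold change without 0. Of the 41 members, 29 were called lower (70.7%), against 14.8% of the 12283 loci compared. Only POLD4 and RFC1 were called higher, against 16.8% of those loci, and 10 were not called. The median log2 fold change was -1.27 over the members and 0.07 over all loci. With genes near 0 fragments set to their bound, the members' median was -1.39. POLD1, POLE, POLE3, PCNA, LIG1 and FEN1 are in the study's own list of genes changed in HT-29 cells, so their direction is not independent evidence. All 6 fell, with a median of -2.19. Of the other 35 members, 23 were called lower and the median was -1.16. PRIM1, POLD1, POLD3, POLD4, FEN1, GINS2 and TIPIN share a locus with another gene, so their changes cannot be assigned to the member. Without these 7, 24 of 34 members were called lower and the median was -1.26. With nuclear fragments thinned to the depth of the shallowest library, GINS3, POLD3, POLE2, RFC1, RFC2, RFC4 and WDHD1 were no longer called, and POLD3 and RNASEH2C were not called by library totals alone.

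A change shared by both lines was tested in a model with line and SCS as terms over the 4 libraries, a fit added after the data were seen. Such a model has 1 residual degree of freedom, and any difference between the lines in their response counts as noise. By edgeR's quasi-likelihood test with Benjamini-Hochberg adjustment, 0 of the 41 members passed an adjusted p of 0.05, and their lowest adjusted p was 0.714. Of 13021 loci, 9 passed (0.0691%). At an unadjusted p under 0.05, 6 members were lower, namely POLA2, POLD1, POLE, LIG1, FEN1 and TIMELESS, and 0 were higher. Of the 13021 loci, 702 had such a p in either direction. DESeq2 called 0 members too, against 0.207% of loci, and gave no adjusted p for 35 members. At an unadjusted p under 0.05 it had 6 members lower, beside 229 of the 13021 loci in either direction.

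In NCM460 cells the members were divided. Of the 41 genes, 9 were called higher, against 15.4% of the 12775 loci compared, and 8 were called lower, against 13.8%. The median was 0.55 over the members and 0.03 over all loci, and 0.25 with genes near 0 fragments at their bound. LIG1 and POLD1 are in the study's list for this line too. Scaled by library totals alone, which put the median of all loci at 0.64, 20 members were called higher and none lower. The shares of all loci called under that scaling were not computed, so these counts have no background. The 9 higher genes had transcripts of 38.1% to 45.9% GC and the 8 lower genes had 51.7% to 65.0%, with no overlap. Across 10874 protein-coding loci in NCM460 cells, Spearman's rho between log2 fold change and GC content was -0.68, a description across genes that share their libraries. Across the 41 members rho was -0.73, and in HT-29 cells it was -0.14 and -0.26. With a smooth trend on GC content removed, ORC2 alone was called higher in NCM460 cells and no member was called lower, against 5.65% and 6.06% of loci. The members' median was then -0.03. In HT-29 cells the same step left all 29 lower genes called, added ORC2 as lower, and left POLD4 as the only higher gene. Of all loci, 16.1% were then called lower and 14.5% higher in HT-29 cells. Values after this step are given below as GC-adjusted. Numbers in brackets after fragment counts are the log2 fold change of SCS over control with its interval.

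**Figure D1:**
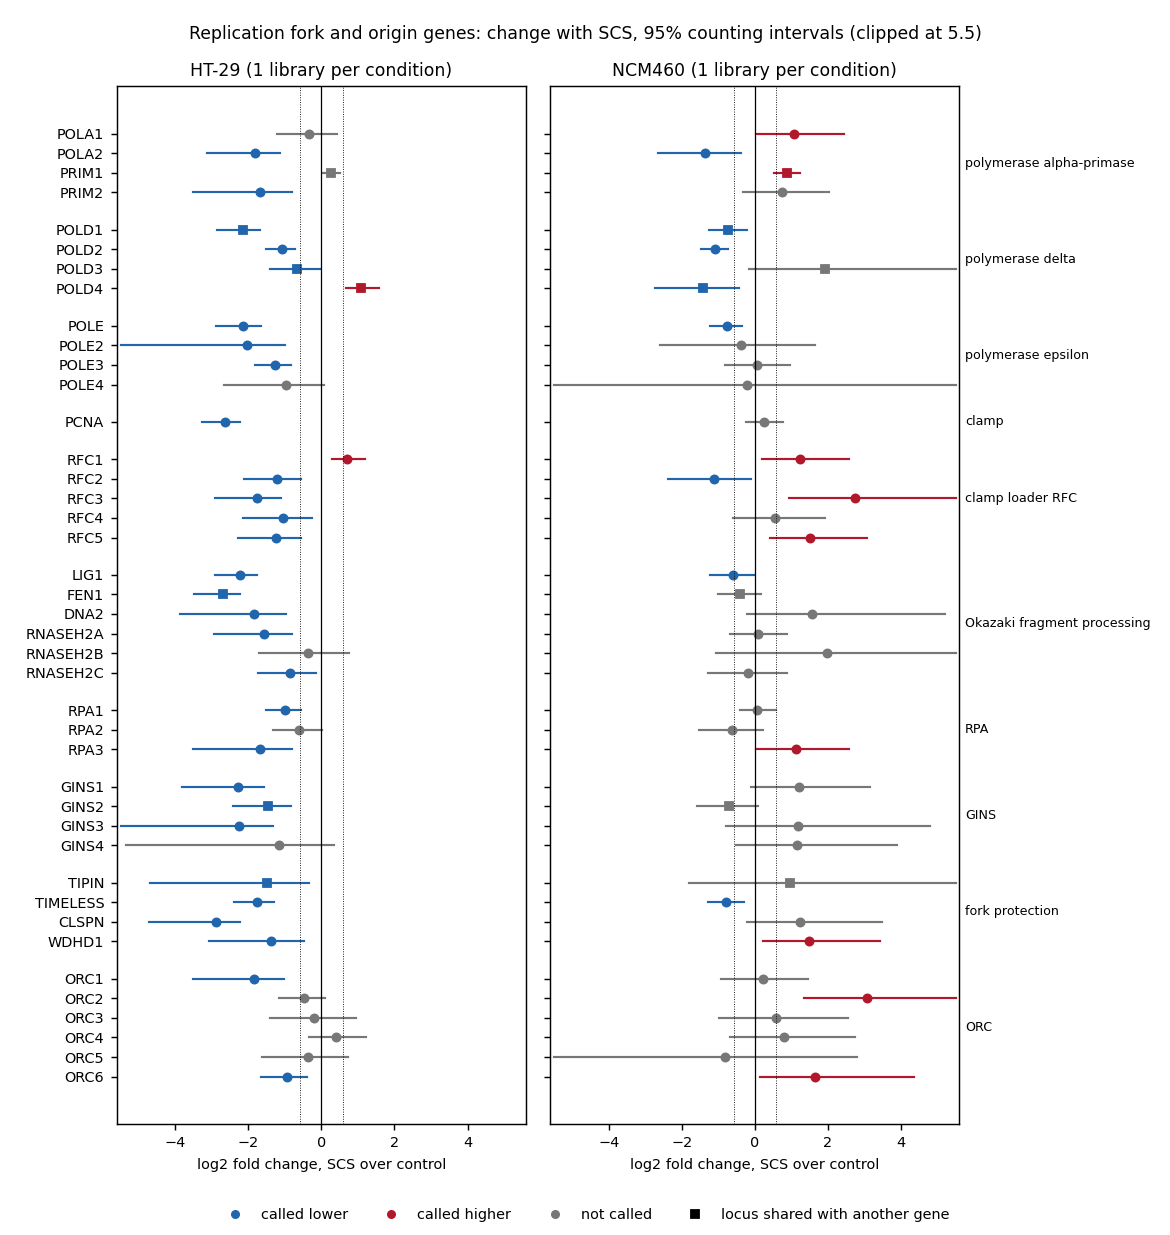
Log2 fold change of SCS over control for each of the 41 genes, grouped by complex, in HT-29 (left) and NCM460 cells (right), 1 library per condition. Points are estimates, lines are 95% counting intervals clipped at 5.5, and dotted lines mark a 1.5-fold change. Blue points called lower fill most complexes in HT-29 cells (29 of 41), and NCM460 cells show 9 red and 8 blue points. POLE4 and ORC5, with at most 3 fragments in each NCM460 library, carry no fold in the text.

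**Figure D2:**
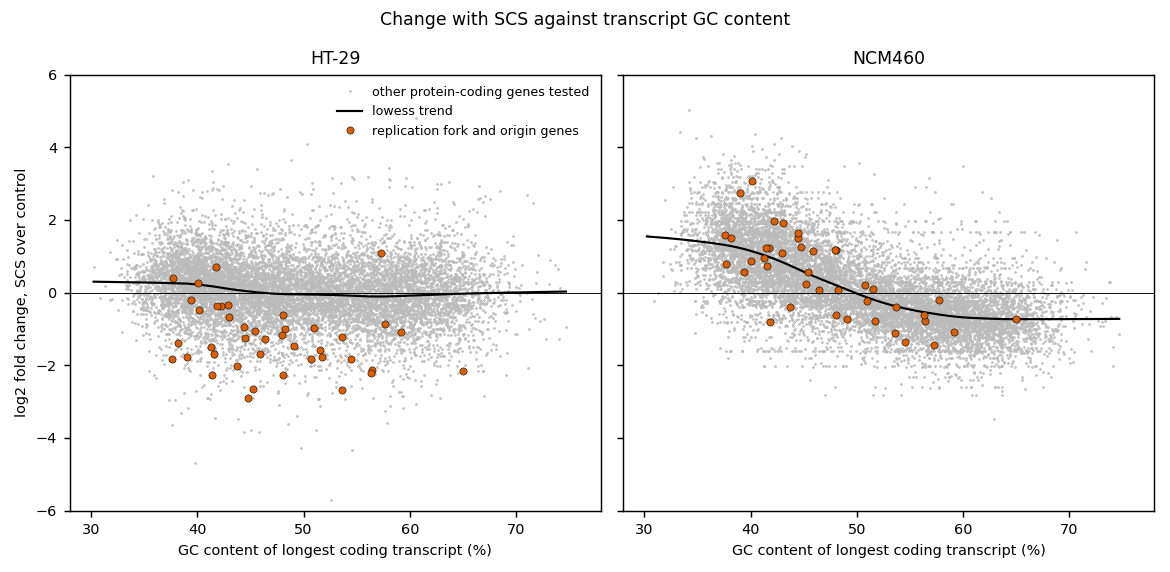
Log2 fold change of SCS over control (y axis) against GC content of the longest coding transcript in percent (x axis), in HT-29 (left) and NCM460 cells (right). Grey points are protein-coding loci, the black line is the smooth trend and orange points are the 41 genes. Orange points lie mostly below the trend in HT-29 cells (median -1.27) and follow the falling trend in NCM460 cells.

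Polymerase alpha-primase, which starts each Okazaki fragment, was reduced in HT-29 cells in POLA2 and PRIM2. POLA2, the accessory subunit that tethers the polymerase, had 43 fragments in the HT-29 control, 12 with SCS, 22 in the NCM460 control and 11 with SCS. Its change was -1.83 (-3.13 to -1.13) in HT-29 cells. POLA2 fell in NCM460 cells too, at -1.37 (-2.67 to -0.37), where it was -0.94 when GC-adjusted and not called. PRIM2, the regulatory primase subunit, had 25, 7, 10 and 24 fragments in the same order of libraries. Its change was -1.69 (-3.52 to -0.82) in HT-29 cells and 0.73 (-0.33 to 2.02) in NCM460 cells, where it was not called. The catalytic subunit POLA1 was not called in HT-29 cells. It had 29 and 26 fragments there (-0.35, -1.21 to 0.42) and 9 and 28 in NCM460 cells (1.08, 0.04 to 2.43), a rise that was 0.27 when GC-adjusted. PRIM1, the catalytic primase subunit, is listed with the same values as the abundant NACA, so its 285, 405, 92 and 234 fragments cannot be assigned to PRIM1. This locus was called higher in NCM460 cells, at 0.86 (0.52 to 1.24), and was -0.24 when GC-adjusted. Over the 3 genes with a locus of their own, the level went from 46.8 to 18.5 CPM in HT-29 cells, a log2 ratio of -1.34 (-1.88 to -0.82). In NCM460 cells it was 51.9 and 57.3 CPM. With PRIM1 included, the sum was 184 and 185 CPM in HT-29 cells, most of it from the shared locus.

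As scaled, POLD1 and POLD2 of polymerase delta were lower in both lines. Neither was called in NCM460 cells when GC-adjusted or by library totals alone. In HT-29 cells POLD4 was the exception to the fall. POLD1, the catalytic subunit, had 126 and 31 fragments in HT-29 cells, and in NCM460 cells it had 72 and 60. It fell in both, at -2.15 (-2.87 to -1.68) in HT-29 cells and -0.73 (-1.26 to -0.22) in NCM460 cells. Its locus is shared with SPIB and a further gene, and the GC-adjusted change in NCM460 cells was -0.01. POLD2, which bridges the catalytic and the PCNA-binding subunits, has a locus of its own. It fell from 149 to 81 fragments in HT-29 cells (-1.08, -1.52 to -0.71) and from 157 to 102 in NCM460 cells (-1.09, -1.47 to -0.73). Each library with SCS was below its control, and the difference between the lines was 0.00 (-0.57 to 0.54). The GC-adjusted change of POLD2 was -1.02 in HT-29 cells and -0.45 in NCM460 cells. With that adjustment the difference between the lines was -0.57 (-1.14 to -0.03), which no longer held 0.

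POLD3, a PCNA-binding subunit in a locus shared with AP001372.2, had 46 and 33 fragments in HT-29 cells (-0.66, -1.40 to -0.04). In NCM460 cells it had 1 and 9 fragments, a ratio of 6.47 with an interval from 0.90 to 284. The smallest subunit, POLD4, is known to be degraded after DNA damage at the protein level. Its locus rose from 60 to 152 fragments in HT-29 cells (1.08, 0.67 to 1.56) and fell from 23 to 11 in NCM460 cells (-1.43, -2.72 to -0.44). The locus is shared with CLCF1, a cytokine gene, and a further gene, so the rise cannot be assigned to POLD4. POLD4 was the only member whose difference between lines was above 0 beyond counting error, both as scaled (2.51, 1.44 to 3.91) and GC-adjusted (2.01, 0.95 to 3.42).

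Polymerase epsilon, the leading strand polymerase, fell in POLE, POLE2 and POLE3 in HT-29 cells. The catalytic subunit POLE had 118 and 29 fragments in HT-29 cells, and in NCM460 cells it had 98 and 79. Its log2 fold change was -2.14 (-2.90 to -1.66) in HT-29 cells, close to that of POLD1, and -0.78 (-1.23 to -0.34) in NCM460 cells, or -0.25 when GC-adjusted. POLE2, the subunit that joins the polymerase to the helicase, went from 8 fragments to 0 in HT-29 cells, at least 3.13-fold lower against the floor, and had 5 and 5 in NCM460 cells. POLE3, a histone-fold subunit that also serves in a chromatin remodeller, fell from 108 to 51 (-1.27, -1.83 to -0.82) and had 20 and 29 fragments in NCM460 cells (0.06, -0.81 to 0.96). Its partner POLE4 had 16 and 8 fragments in HT-29 cells (-0.98, -2.67 to 0.08), which was not called, and 1 and 1 in NCM460 cells, where no fold is given. The summed level of the 4 genes went from 121 to 36.1 CPM in HT-29 cells, a log2 ratio of -1.74 (-2.11 to -1.38). In NCM460 cells it went from 157 to 104 CPM, a log2 ratio of -0.60 (-0.98 to -0.22), most of it from POLE.

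PCNA, the sliding clamp that holds the polymerases on DNA, was among the strongest falls in HT-29 cells. The gene (ENSG00000132646) spans 5114953 to 5126626 on chromosome 20 of GRCh38, minus strand. It went from 216 to 38 fragments, or from 104 to 15.6 CPM, in HT-29 cells (-2.65, -3.28 to -2.24). In NCM460 cells it had 55 and 91 fragments, or 69.6 and 82.8 CPM (0.25, -0.25 to 0.76), which was not called. The HT-29 library with SCS was the lowest of the 4, and the other 3 lay between 69.6 and 104 CPM. The lines differed by -2.89 (-3.73 to -2.26) on the log2 scale, and by -2.43 (-3.27 to -1.80) when GC-adjusted.

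The clamp loader RFC was split between its large subunit and its small subunits in HT-29 cells. RFC2 to RFC5 fell, and RFC1, the large subunit that contacts PCNA, rose. RFC1 went from 66 to 129 fragments in HT-29 cells (0.71, 0.30 to 1.18) and from 9 to 31 in NCM460 cells (1.22, 0.20 to 2.56), the only member called higher in both lines, against 4.2% of loci. The rise in HT-29 cells was 0.53 (0.12 to 1.01) when GC-adjusted, which is below 1.5-fold, and that in NCM460 cells was 0.28 (-0.74 to 1.62). By the deposited FPKM values, RFC1 was lower in NCM460 cells, at -0.95 on the log2 scale.

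RFC3 had 50 and 15 fragments in HT-29 cells (-1.78, -2.91 to -1.11) and 1 and 17 in NCM460 cells, a ratio of 12.2 with an interval from 1.92 to 511. RFC5 had 40 and 18 in HT-29 cells (-1.25, -2.27 to -0.55) and 7 and 30 in NCM460 cells (1.5, 0.41 to 3.06). These subunits fell in HT-29 cells and rose in NCM460 cells, where neither was called when GC-adjusted. RFC2 fell in both lines, from 47 to 22 (-1.22, -2.13 to -0.57) and from 20 to 12 fragments (-1.13, -2.38 to -0.11). In NCM460 cells the change of RFC2 was -0.76 when GC-adjusted and was not called. RFC4 fell from 31 to 16 in HT-29 cells (-1.05, -2.16 to -0.27) and had 9 and 19 fragments in NCM460 cells (0.55, -0.61 to 1.93). The summed level of RFC hid this split, with 113 and 82.1 CPM in HT-29 cells, a log2 ratio of -0.46 (-0.74 to -0.18). Per length, RFC1 was the lowest subunit of the HT-29 control at 6.51 CPM per kb of transcript, under the 7.88 to 13.4 of the others. With SCS it was the highest at 10.8, above the 2.56 to 5.33 of the others.

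**Figure D3:**
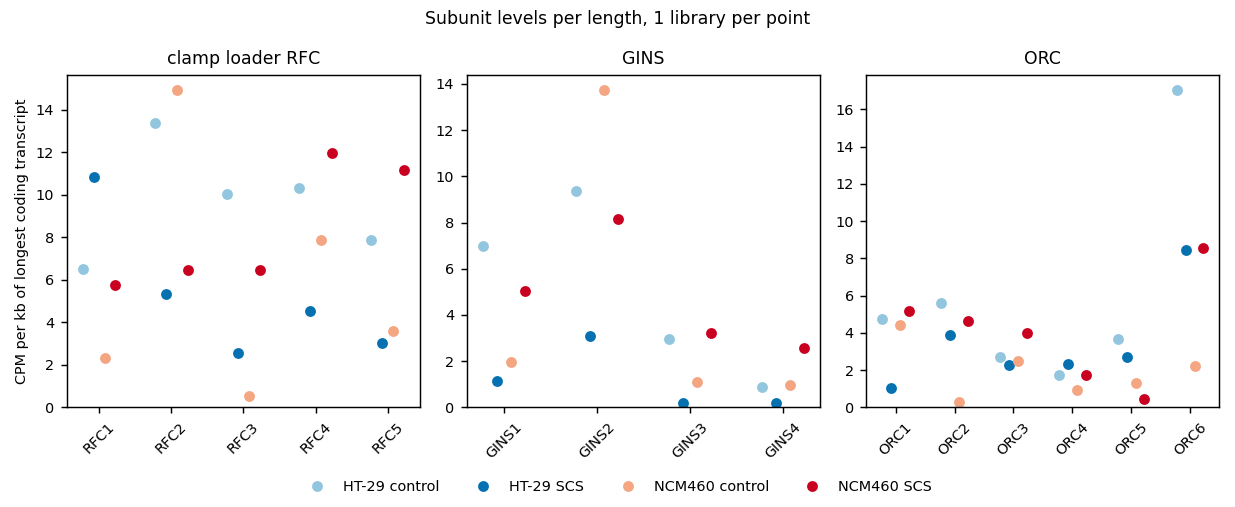
Level per length (CPM per kb of the longest coding transcript, y axis) of the subunits of RFC, GINS and ORC in the 4 libraries, 1 library per point. RFC1 is the only RFC subunit above its control in the HT-29 library with SCS, at 10.8 against 6.51. ORC6 stands above the other ORC subunits in the HT-29 control, at 17.0, and GINS2 shares its locus with another gene.

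Okazaki fragment processing fell in 5 of 6 genes in HT-29 cells. FEN1, the flap endonuclease, had 157 and 26 fragments in HT-29 cells (-2.69, -3.49 to -2.22) and 51 and 53 in NCM460 cells (-0.41, -1.0 to 0.16). Its locus is shared with FADS2, so the fall cannot be assigned to FEN1. LIG1, the ligase that seals the nicks, had 141 and 33 fragments in HT-29 cells, and in NCM460 cells it had 51 and 46. It fell in both, with log2 fold changes of -2.23 (-2.92 to -1.77) and -0.61 (-1.23 to -0.02), the latter -0.09 when GC-adjusted and 0.06 when scaled by library totals alone. The nuclease DNA2 fell from 25 to 6 fragments in HT-29 cells (-1.84, -3.87 to -0.97) and had 2 and 11 in NCM460 cells, a ratio of 3.96 (0.86 to 36.7).

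The RNase H2 enzyme removes RNA primers and stray ribonucleotides, and its subunits differed in HT-29 cells. The catalytic RNASEH2A fell from 33 to 11 fragments (-1.57, -2.95 to -0.80), and RNASEH2C fell from 39 to 24 (-0.85, -1.73 to -0.16). RNASEH2B had 14 and 12 fragments (-0.37, -1.70 to 0.76) and was not called. In NCM460 cells RNASEH2A had 25 and 37 fragments, RNASEH2C 15 and 18, and RNASEH2B 0 and 4, at least 1.04-fold higher against the floor, and none was called. Over the 5 genes with a locus of their own, the level went from 122 to 35.3 CPM in HT-29 cells (-1.78, -2.15 to -1.43) and was 118 and 106 CPM in NCM460 cells (-0.16, -0.56 to 0.25).

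RPA, the trimer that binds unpaired DNA, fell in RPA1 and RPA3 in HT-29 cells. RPA1, the large DNA-binding subunit, had 105 and 60 fragments in HT-29 cells (-1.0, -1.52 to -0.57) and 61 and 89 in NCM460 cells (0.07, -0.42 to 0.56). RPA3, the smallest subunit, fell from 25 to 7 in HT-29 cells (-1.69, -3.52 to -0.82) and rose from 8 to 26 in NCM460 cells (1.13, 0.04 to 2.58). The rise of RPA3 was 0.70 when GC-adjusted and was not called. RPA2, which is phosphorylated at stressed forks, had 47 and 35 fragments in HT-29 cells, -0.62 on the log2 scale, with an interval that reached 0, and 26 and 23 in NCM460 cells (-0.62, -1.53 to 0.21). The RPA sum was 85.4 and 41.9 CPM in HT-29 cells, a log2 ratio of -1.03 (-1.39 to -0.67), and 120 and 126 CPM in NCM460 cells.

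GINS, a part of the active helicase, fell in GINS1, GINS2 and GINS3 in HT-29 cells. GINS1 had 47 and 9 fragments in HT-29 cells (-2.27, -3.83 to -1.57) and 5 and 18 in NCM460 cells (1.22, -0.11 to 3.16). GINS3 went from 14 fragments to 1 in HT-29 cells, a ratio of 16.5 (2.50 to 696) in favour of the control, and had 2 and 8 in NCM460 cells, a ratio of 2.88 (0.57 to 27.8). GINS2 fell from 52 to 20 in HT-29 cells (-1.48, -2.43 to -0.84) and had 29 and 24 in NCM460 cells (-0.72, -1.59 to 0.08), in a locus shared with C16orf74. GINS4 was the shallowest, with 7 and 2 fragments in HT-29 cells, 3 and 11 in NCM460 cells, and no call in either line. Summed over GINS1, GINS3 and GINS4, the level went from 32.8 to 4.92 CPM in HT-29 cells, a log2 ratio of -2.74 (-3.76 to -1.84). With GINS2 included, that ratio was -2.14 (-2.75 to -1.57). In NCM460 cells the sum without GINS2 went from 12.7 to 33.7 CPM, a log2 ratio of 1.41 (0.38 to 2.59). None of these 3 genes was called alone. With GINS2 included, the NCM460 sum was 49.3 and 55.5 CPM, a log2 ratio of 0.17 (-0.43 to 0.79). GINS1, GINS3 and GINS4 had transcripts of 41.4% to 48.1% GC, and their GC-adjusted changes in NCM460 cells were 0.25 to 1.00.

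The fork protection factors were called lower in HT-29 cells in 4 of 4 genes. CLSPN encodes claspin, the adaptor of checkpoint kinase signalling at the fork, and spans 35720218 to 35769967 on chromosome 1, minus strand. It went from 61 to 7 fragments in HT-29 cells (-2.90, -4.73 to -2.23), the largest fall by fitted value among the members. In NCM460 cells it had 4 and 15 fragments (1.24, -0.22 to 3.48). TIMELESS fell in both lines, from 119 to 39 fragments (-1.76, -2.40 to -1.31) and from 81 to 65 (-0.78, -1.29 to -0.30), the latter -0.56 when GC-adjusted. Its partner TIPIN, in a locus shared with a ribosomal pseudogene, had 12 and 3 fragments in HT-29 cells, a ratio of 4.7 (1.27 to 26.0) in favour of the control, and 1 and 4 in NCM460 cells. WDHD1, which couples polymerase alpha to the helicase, fell from 22 to 8 in HT-29 cells (-1.39, -3.07 to -0.47) and rose from 5 to 22 in NCM460 cells (1.49, 0.23 to 3.42), or 0.24 when GC-adjusted. Without TIPIN, the summed level went from 97.4 to 22.2 CPM in HT-29 cells (-2.14, -2.60 to -1.70) and was 114 and 92.8 CPM in NCM460 cells (-0.29, -0.72 to 0.13).

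ORC, which marks origins, moved least among the multi-subunit complexes by the median in HT-29 cells, at -0.43. ORC1, the subunit whose level follows the cell cycle, fell from 31 to 8 fragments in HT-29 cells (-1.84, -3.52 to -1.03) and had 11 and 18 in NCM460 cells (0.22, -0.93 to 1.46). ORC6, the smallest subunit, fell from 60 to 35 in HT-29 cells (-0.95, -1.66 to -0.39) and went from 3 to 16 in NCM460 cells, a ratio of 3.84 (1.10 to 20.5). The core subunits ORC2 to ORC5 were not called in HT-29 cells. ORC2 had 50 and 41 fragments there (-0.49, -1.15 to 0.11), and ORC4 had 24 and 38 (0.39, -0.34 to 1.23). ORC3 and ORC5 lay between, at -0.19 and -0.37, with 13 to 15 fragments in each HT-29 library.

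In NCM460 cells ORC2 had 1 fragment in the control and 22 with SCS, a ratio of 15.8 with an interval from 2.56 to 653. It was the only member called higher when GC-adjusted (1.98, 0.26 to 8.25), and its control value rests on 1 fragment. ORC2 (ENSG00000115942) spans 200908973 to 200963680 on chromosome 2, minus strand. ORC3 had 5 and 11 fragments, ORC4 5 and 13, and ORC5 2 and 1 in NCM460 cells, and none was called. The ORC sum was 93.6 and 61.1 CPM in HT-29 cells (-0.61, -0.93 to -0.30) and 34.2 and 73.7 CPM in NCM460 cells (1.11, 0.47 to 1.80). These sums were not GC-adjusted, and the GC-adjusted median of the ORC genes in NCM460 cells was -0.07. Per length, ORC6 was the highest subunit in the HT-29 control at 17.0 CPM per kb, above the 1.72 to 5.59 of the others. It was still the highest with SCS, at 8.45.

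**Figure D4:**
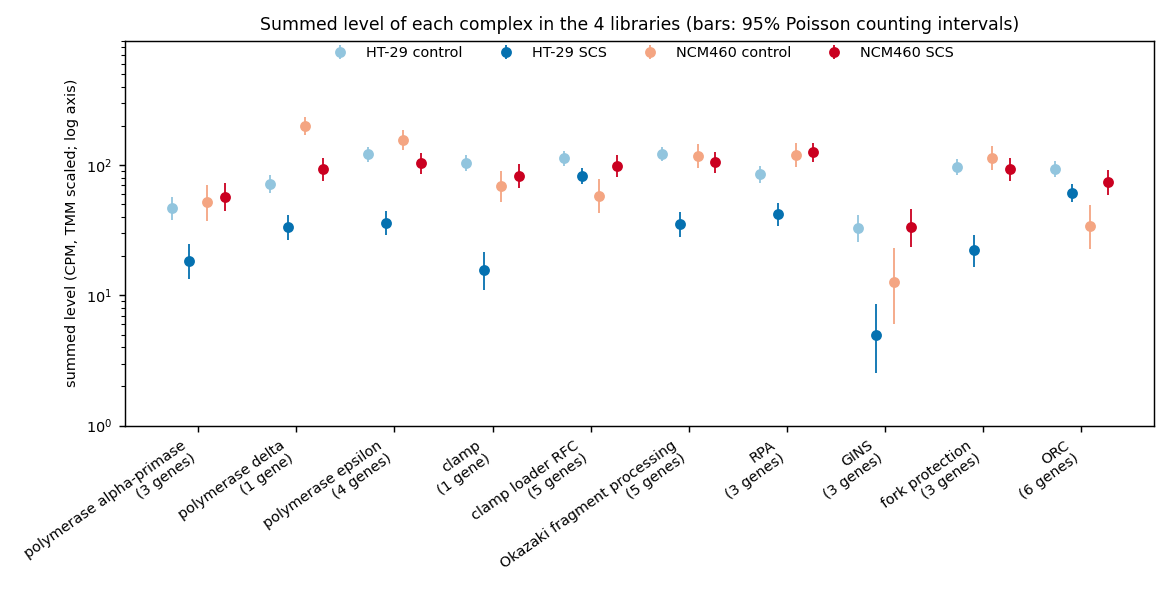
Summed level of each complex in CPM (log axis) in the 4 libraries, over the genes that do not share a locus, which leaves POLD2 alone for polymerase delta. Bars are 95% Poisson counting intervals and 1 library stands behind each point. In HT-29 cells every complex was lower with SCS, from a log2 ratio of -2.74 in GINS and PCNA to -0.46 in RFC. In NCM460 cells GINS without GINS2, RFC and ORC were the complexes whose log2 ratio had an interval above 0. With GINS2 included, the GINS interval was -0.43 to 0.79. The sums are not GC-adjusted. GC-adjusted medians over the genes in NCM460 cells were 0.61 for GINS, 0.28 for RFC and -0.07 for ORC.

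The lines were set side by side through the difference of their log2 fold changes, HT-29 minus NCM460. The interval of this difference lay below 0 for 26 of the 41 members and above 0 for POLD4. After the GC adjustment it lay below 0 for 22 and above 0 for POLD4. This difference was computed for the members alone. How often its interval lies beside 0 among all loci is therefore not known, and these counts have no background. Members called in both lines as scaled fell into 4 kinds. POLA2, POLD1, POLD2, POLE, RFC2, LIG1 and TIMELESS were lower in both (7 of 41, against 3.35% of 10957 loci compared in both lines). RFC3, RFC5, RPA3, WDHD1 and ORC6 were lower in HT-29 and higher in NCM460 cells (5 of 41, against 1.94%). POLD4 was the reverse, against 1.85%, and RFC1 was higher in both. When GC-adjusted, none of the members of these 4 kinds was called in NCM460 cells. By library totals alone, which put the median of all loci in that line at 0.64, 0 members were called lower. Taken by line, 70.7% of the members were called lower in HT-29 cells and 19.5% in NCM460 cells as scaled. For the genes lower in both lines, the HT-29 change was beyond the NCM460 change by counting error for POLD1, POLE, LIG1 and TIMELESS. POLA2, POLD2 and RFC2 had intervals of the difference that held 0, from -2.15 to 0.97 for POLA2, from -0.57 to 0.54 for POLD2 and from -1.5 to 1.30 for RFC2. The GC-adjusted interval of POLD2, -1.14 to -0.03, did not hold 0. The largest difference without a library at 3 fragments or fewer was that of CLSPN, at -4.13 (-7.11 to -2.62), and it was -3.63 when GC-adjusted. GINS1 followed with -3.49 (-6.05 to -2.04).

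**Figure D5:**
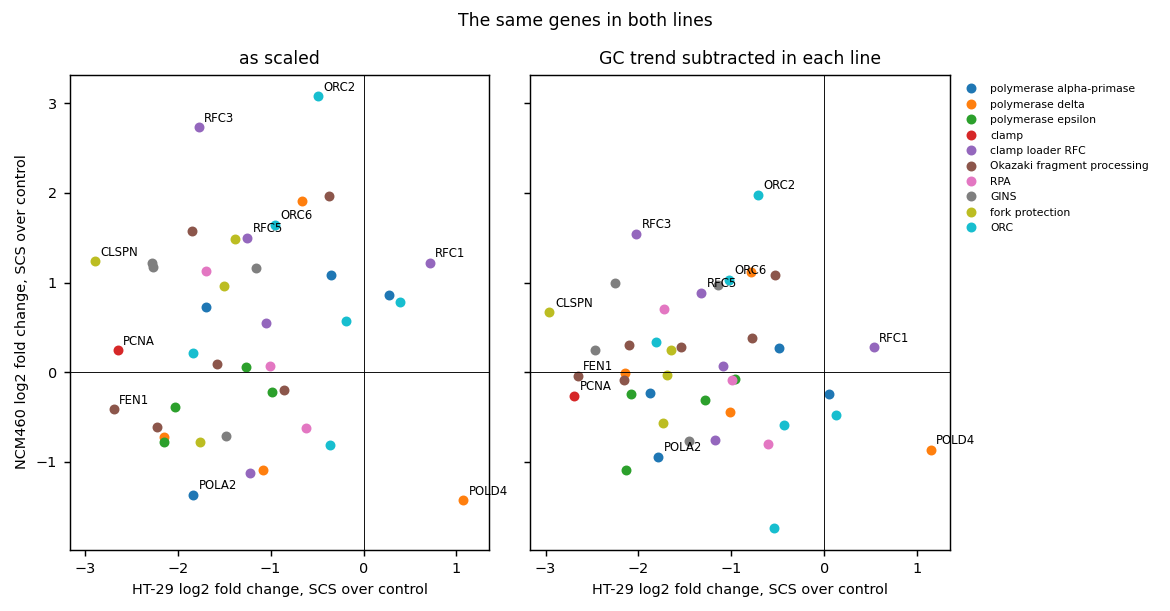
Log2 fold change of SCS over control in NCM460 cells (y axis) against HT-29 cells (x axis) for the 41 genes, coloured by complex, as scaled (left) and with the GC trend subtracted in each line (right). Most points lie left of 0 in both panels (37 of 41 genes). Their median height moves from 0.55 to -0.03 when the trend is subtracted.

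Other genes of the pathway were taken from lists, whose counts stand beside the shares of all loci called, for HT-29 cells 14.8% lower and 16.8% higher, for NCM460 cells 13.8% and 15.4%. After the GC adjustment the HT-29 shares were 16.1% and 14.5%, and the NCM460 shares 6.06% and 5.65%. Of 17 genes that load and activate the helicase, 12 were called lower in HT-29 cells and none higher, with a median log2 fold change of -1.47. MCM4, a helicase subunit, was the lowest, at -3.62, and DBF4, which activates the CDC7 kinase, was the highest, at 0.34 with an interval that included 0. The licensing factors CDC6 and CDT1 were not called, with 61 and 66 fragments and 53 and 48 fragments. In NCM460 cells, 4 of the 17 were called higher and 4 lower, and 2 and 0 when GC-adjusted. Of 5 genes of the other clamp loaders and unloader, 2 were called lower in HT-29 cells, with CHTF18 lowest at -1.65 and RAD17 highest at -0.12.

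Polymerases for damage bypass and repair went the other way in HT-29 cells. Of 10 such genes, 6 were called higher, against 16.8% of loci, and 1 lower, against 14.8%. Their median was 0.88, and that of all loci was 0.07. POLL, a gap-filling repair polymerase, rose from 7 to 42 fragments (2.0, 1.18 to 3.75). POLQ, the polymerase of end joining by microhomology, fell from 42 to 11 (-1.90, -3.27 to -1.18). With the GC trend subtracted, 4 of the 10 were called higher and 1 lower. None was called in NCM460 cells as scaled. When GC-adjusted, 1 of the 10 was called higher there, against 5.65% of loci, and 0 lower. That gene was MAD2L2 (1.22, 0.54 to 1.96). Among 6 genes of mitochondrial DNA replication in HT-29 cells, TFAM was called lower, at -0.91, and POLRMT was the highest, at -0.05. Among 6 topoisomerases and other ligases, TOP2A was called lower at -0.87 and LIG4 higher at 0.68.

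The E2F transcription factors, their DP partners and the RB family that restrains them formed the last list. In HT-29 cells 6 of 13 genes were called lower, against 14.8% of loci, namely E2F1, E2F2, E2F3, E2F8, TFDP1 and RBL1, and E2F7 and RBL2 were called higher, against 16.8%. E2F8 was the lowest, with 28 and 3 fragments, and E2F1, an activator of S phase genes, had 46 and 7 (-2.51, -4.34 to -1.79). E2F7, a repressor of the family, had 34 and 80 (0.95, 0.41 to 1.63) and was the highest. In NCM460 cells RB1, RBL1 and RBL2 were called higher and E2F4 lower. The NCM460 control held 5, 1 and 3 fragments of RB1, RBL1 and RBL2. When GC-adjusted, RBL2 alone was called higher there (1.47, 0.09 to 4.18). E2F7, not called as scaled in that line, was then the only gene called lower (-1.43, -2.80 to -0.22).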

How the data were processed

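RNA was sequenced from HT-29 and NCM460 cells, 1 library for each of 4 conditions. The authors extracted total RNA with TRIzol and sequenced paired ends on an Illumina HiSeq instrument, and they call the result an mRNA profile. The submitters' processing notes name bcl2fastq 2.17.1.14, cutadapt 1.9.1, Bowtie2, HTSeq 0.6.1 and build hg19, with no role for each, and the methods name Cuffdiff. The coordinates in the deposited table are those of GRCh38 (93.6% of positions as in GENCODE release 29), and GRCh38 is used here. The deposited count columns hold a signal, namely fragment counts over a library-wise size factor set by the authors, and not the whole counts that the design had assumed. The deposited FPKM values are fragments per kilobase, scaled to library size by the authors. No value columns were left unassigned.

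Division by the worth of 1 fragment (0.686, 0.577, 2.04 and 1.33) gave whole numbers, within 0.02, for 99.8% of values in each library and for 100% under 200 fragments. Rows without a gene name, 26 in number, held at most 0.0352% of the fragments and were left out. Overlapping genes listed with the same values within 1 Mb were merged into 18777 loci, of which 1752 hold several genes, 7 of them with a member. Fragments were scaled by TMM factors (edgeR 4.0.16), with DESeq2 1.42.0 size factors as an alternative. With 1 library in each condition, neither count test could be run within a line. Both were run on an additive model of line and SCS over the 4 libraries, added after the data were seen. CPM values with 2 counts added as a prior gave the log2 fold changes. Each has a 95% exact Clopper-Pearson interval of the share of fragments in the SCS library, which covers counting error only. Fragments without molecular identifiers are not independent molecules. A locus was compared in a line when its 2 libraries averaged 1 CPM or more. A gene with 3 fragments or fewer in 1 library is given as a ratio with its interval, or, at 0, against a floor of 3 fragments. The GC trend is a lowess fit (span 0.3) on the longest coding transcript of GENCODE release 29, a measure settled after its effect was seen. The calls within a line were tested on counts simulated with counting error alone and no GC trend. Of 200 loci changed 4-fold, 198 were recovered in HT-29 cells and 181 in NCM460 cells. Of the unchanged loci, 2.24% and 2.30% were called. Such counts cannot show how often calls arise from variation between cultures or from GC content. The additive model was tested on counts simulated with added spread between libraries.

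The members and gene lists were chosen with earlier results of these data known. Values are given for each member called in a line and for the highest and lowest of each complex. In each list the highest and lowest gene in HT-29 cells at a mean of at least 5 CPM is named, and further list genes were named after their values were seen.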

Additional observations from a re-analysis of the deposited data

Results flagged for a closer look

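The genes here were called in opposite directions in HT-29 and NCM460 cells. With 1 library per condition the difference between the lines was not tested, and its size in log2 units, HT-29 minus NCM460, rests on counting alone.

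RFC3 differed by -4.51 (50 and 15 fragments in HT-29 cells, 1 and 17 in NCM460 cells), a size that depends on the prior count because the NCM460 control held 1 fragment. WDHD1 differed by -2.88, RPA3 by -2.82, RFC5 by -2.75 and ORC6 by -2.60, each lower in HT-29 and higher in NCM460 cells. The NCM460 control held 5, 8, 7 and 3 fragments of these genes. POLD4 differed by 2.51 in the other direction, in a locus shared with CLCF1. When GC-adjusted, none of the 6 was called in NCM460 cells, and the intervals of the 6 differences still did not include 0. The GC-adjusted differences were -3.57 for RFC3, -1.89 for WDHD1, -2.42 for RPA3, -2.21 for RFC5, -2.06 for ORC6 and 2.01 for POLD4.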

How the results depend on the processing

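The HT-29 count of members called lower, 29 as reported, ranged from 23 to 32 over the alternatives, and the median log2 fold change from -1.58 to -1.10. Of the 31 called HT-29 members, 23 were called in every scaling, trend, filter and depth alternative in which they were compared. TIPIN is among these 23 although the filter at a mean of at least 5 CPM left it out. GINS3, POLD3, POLE2, RFC1, RFC2, RFC4 and WDHD1 lost their call after thinning of the nuclear fragments to 1 depth, POLD3 and RNASEH2C by library totals only, and RFC1 by nuclear totals and with the GC trend subtracted. The count called higher in HT-29 cells fell from 2 to 1 by nuclear totals, after thinning, with either GC trend subtracted and with shared loci left out. In NCM460 cells ORC2 alone was called in all of these alternatives. The lower and higher counts there, 8 and 9 as reported, were 0 and 20 by library totals only, 0 and 1 with the GC trend subtracted, 3 and 2 with the trend on mean GC content (added after seeing the data), and 4 and 5 with the expression trend subtracted. The lower count was 5 by nuclear totals and 5 with members of the study's list left out (also added). The NCM460 median, 0.55, was -0.028 with the GC trend subtracted and -0.12 by the deposited FPKM values. Single genes reversed in NCM460 cells: POLA1 at -0.12 and RFC1 at -0.95 by FPKM, PRIM1 at -0.24 with the GC trend subtracted and LIG1 at 0.061 by library totals. The cause was not tested. With 1 library per condition there were no replicates to pair within a line, and none could be left out. With line as the block, the additive model called 0 members by edgeR and 0 by DESeq2. In the NCM460 control 23 members had 10 fragments or fewer, which limits what that line can show.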
